A study of Mus musculus with 27 samples.

Results

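The comparison set CH12F3 cells lacking both XLF and PAXX (XLF-/-PAXX-/-, 2 clones with 3 libraries each) against the WT line (1 clone, 3 libraries). Its members were all junctions deposited for these groups. They were 49215 junctions in the 6 double-mutant libraries and 11504 in the 3 WT libraries, of 193201 junctions in 27 libraries of 9 clones in the whole series. CH12F3 cells, a B-lymphoma line from mouse, can be induced in culture to change from IgM to IgA. Every group was stimulated for 72 h with IL-4 (20 ng/mL), αCD40 (1 mg/mL as labelled) and TGFβ (1 ng/mL), and genomic DNA was then taken. Both double-mutant clones were made from 1 PAXX-/- clone, which the labels do not name, so they were not independent of each other. WT was a single line, and a test between clones was therefore not possible. The samples of a clone are labelled as biological replicates, and the p-values measure the spread between these libraries. Junctions hold no expression values, so neither the cell type nor the loss of XLF and PAXX could be checked in them.

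During class switch recombination, AID deaminates cytosines in the repetitive switch regions of the immunoglobulin heavy chain locus, with a preference for motifs such as AGCT, and the lesions are turned into double-strand breaks. Breaks in the donor region Sμ are joined to breaks in an acceptor region, here Sα, mainly by classical non-homologous end joining. XLF and PAXX are structurally related accessory factors of that pathway: XLF works with XRCC4 at the ligation step, and PAXX binds Ku at the ends. When classical joining is impaired, ends can be resected and joined by alternative pathways that often use short stretches of matching bases. In a deletional junction the DNA between the joined ends is lost, and in an inversional junction the prey end is joined in the opposite orientation.

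In LAM-HTGTS, a linear-amplification method for mapping translocations, each read starts in a fixed stretch of the 5′ part of Sμ, the bait, and runs into whatever DNA was joined to it, the prey. The bait sequence below shows where its ends can lie. It was read as the commonest base over the reads of the files, from chr12:114664780-114664909 (mm9, minus strand), with position 1 at the high coordinate and its 2 AGCT motifs (positions 64 to 67 and 85 to 88) in capitals.
bait: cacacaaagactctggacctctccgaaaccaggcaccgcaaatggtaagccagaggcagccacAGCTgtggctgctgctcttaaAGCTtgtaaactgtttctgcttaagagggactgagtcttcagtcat
The next lines show a double-mutant junction of each kind, each with the most reads of its kind when reads were weighted by library size. Junctions with a bait end up to 8 bases before position 66 were passed over, because a substitution at that position, described below, leaves their kind uncertain. The bases shown matched the germline bait and the first 10 bases of the germline prey. A direct join has no shared or inserted base. Here the capitals mark the prey, which begins at chromosome 12 position 114498743, after a bait end at position 51.
direct join: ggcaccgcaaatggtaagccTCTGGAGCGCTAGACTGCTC
germline bait: ggcaccgcaaatggtaagccagaggcagcc
germline prey: ggctcagaaatctggagcgc
In a microhomology join the capitals mark bases that could belong to either end. The join at 114497592 had 4 shared bases.
microhomology join: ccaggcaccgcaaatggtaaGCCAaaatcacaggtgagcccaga
germline bait: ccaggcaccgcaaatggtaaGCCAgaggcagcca
germline prey: tggcacaattGCCAaaatca
In an insertion, bases that neither alignment covers lie between the bait and the prey. The join at 114499203 had 2, in capitals, after a bait end at position 105.
insertion join: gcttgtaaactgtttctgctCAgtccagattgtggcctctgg
germline bait: gcttgtaaactgtttctgcttaagagggac
germline prey: ttgttttatggtccagattg
The direct join was found in 3 double-mutant libraries (3 reads), the microhomology join in 6 (6 reads) and the insertion in 3 (3 reads). None of them was seen in WT. They were picked by their double-mutant reads and WT had fewer junctions, so this absence is no result.

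WT libraries held 3610 to 4010 junctions and double-mutant libraries 5309 to 9979. Read names placed all WT libraries in sequencing run 232 and all double-mutant libraries in run 229, so the sequencing run cannot be told apart from the genotype. The PAXX-/- and XLF-/- libraries of the series came from runs 224 and 226. In those shared runs direct joins made up 17.1% (clone 1) and 16.6% (clone 2) of Sα junctions without PAXX, and 6.44% (clone 1) and 6.06% (clone 2) without XLF. In the double mutant the bait itself was mixed: the substitution C66T (counted from bait position 1, in the first AGCT) was in 43.8% to 46.6% of reads of clone 1 and 50.4% to 53.2% of clone 2. It was in at most 0.730% of WT reads, at most 1.55% in PAXX-/- clone 1, and 41.2% to 41.5% in PAXX-/- clone 2. PAXX-/- clone 2 also had the substitution G65A, in 55.6% to 57.2% of reads, while C66T was the only one above 5% in the double mutant. XLF-/- clone 1 had G77A in 46.0% to 48.6% of reads. Each library gave 1 value per measure, WT and double-mutant libraries were compared by an exact two-sided permutation test over the 84 splits of 6 against 3, and p-values were adjusted by Benjamini-Hochberg over 123 measures. A measure was called when its adjusted p was under 0.05. Of the 123 measures 91 were called (74%), of which 54 were higher (43.9%) and 37 lower (30.1%) in the double mutant. Without adjustment 92 had a p under 0.05 (74.8%). Unless another p is given, a called measure had the lowest p possible with 84 splits, 0.0119 by exact permutation, an adjusted p of 0.0170, and no overlap between the groups.

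Direct joins at Sα were at 0.318 of their WT level in cells lacking XLF and PAXX, and joins through microhomology were more frequent. The Sα window was the 20 kb around the densest bin of acceptor junctions (chromosome 12, 114489501 to 114509500). The direct share of Sα junctions was 18.5%, 18.4% and 18.1% in the WT libraries. In the double mutant the lowest library had 5.42%, the median was 5.89% and the highest had 6.19%, with means of 5.94% in clone 1 and 5.75% in clone 2. The difference of means was -12.5 percentage points (95% interval -13.0 to -12.1), far outside the spread of either group. The microhomology share was 53.8%, 55.4% and 53.7% in WT and 70.1% to 72.1% in the double mutant (median 70.9%). All 6 double-mutant libraries lay above all 3 WT libraries, with a difference of 16.8 points (15.1 to 18.3). Insertions were in 27.7%, 26.2% and 28.2% of WT Sα junctions and in 21.7% to 24.2% of those of the double mutant, a difference of -4.25 points (-6.11 to -2.36). This last difference depended on the mixed bait base, as described below.

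The microhomologies were also longer. Their mean length was 2.29, 2.35 and 2.36 bases in the WT libraries and 2.79 to 2.88 bases in the double mutant, a difference of 0.51 bases (0.45 to 0.57). The length classes moved in opposite directions. Joins with 1 shared base were less frequent, at 11.3% ± 0.612 (SD, n = 6) of Sα junctions against 18.9% ± 0.472 (n = 3). Every longer class was more frequent. Joins with 2 shared bases were 22.3% ± 0.673 against 15.5% ± 0.857, those with 3 were 18.1% ± 0.543 against 9.70% ± 0.499, and those with 4 were 11.03% ± 0.223 against 6.24% ± 0.331. Joins with 5 shared bases were 5.26% ± 0.403 against 2.81% ± 0.239, and those with 6 or more were 3.04% ± 0.357 against 1.20% ± 0.207. The fold over WT was lowest at 2 bases (1.44) and highest at 6 or more (2.54). Among microhomology joins alone, 27.2% had at least 4 bases in the double mutant and 18.9% in WT (difference 8.33 points, 6.80 to 9.83). When bait ends at or past the substituted base were left out, that difference was 13.2 points. The GC content of the shared bases was 61.8% against 61.2% and was not called (exact permutation p = 0.143, adjusted p = 0.166).

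**Figure D1:**
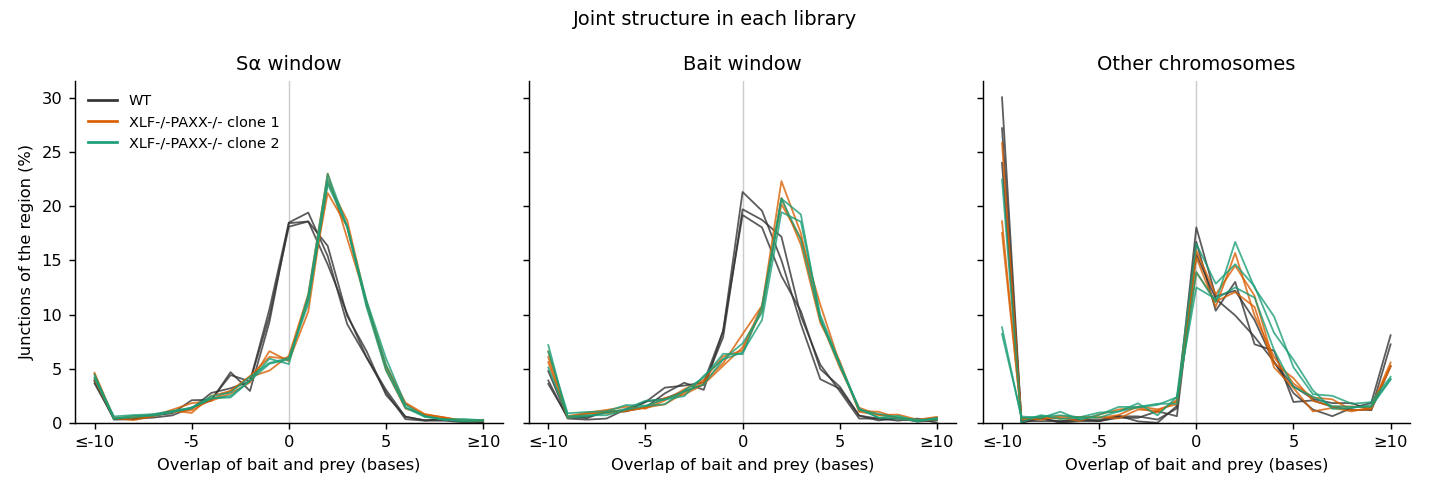
Share of junctions (y axis, percent) by overlap of the bait and prey alignments (x axis, bases; above 0 microhomology, 0 direct, below 0 insertion), 1 line per library, in the Sα window, the bait window and on other chromosomes; values past 10 bases are summed at the ends. At Sα the WT lines peak at 0 and 1 base and the double-mutant lines at 2 bases, and on other chromosomes the lines of the groups run together around 0.

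Insertions differed by length. Insertions of 1 base were in 5.74% ± 0.615 (SD, n = 6) of double-mutant Sα junctions and 9.87% ± 0.592 (n = 3) of WT ones. Those of 2 to 5 bases were in 10.4% ± 0.390 and 11.5% ± 0.795, and this direction was reversed among bait ends before the substituted base (12.2% against 10.3%). Such bait ends include position 65, right before that base, where the substituted base can be read as an insertion. With the bait carried across substituted bases the double-mutant share was 8.05%, and WT in that reading is not given here. Insertions of 6 to 20 bases were more frequent in the double mutant, at 5.49% ± 0.434 against 4.30% ± 0.164, and those over 20 bases were not called (1.52% against 1.65%, exact permutation p = 0.405, adjusted p = 0.441). The substituted bait base was read as an insertion in part of these junctions. In the double mutant, 21.3% to 25.4% of Sα insertions began with the base that C66T places right after a bait end at position 65, against 2.26% to 3.01% in WT. Insertions that read as further bait carrying just the changed base were 9.44% to 12.2% of double-mutant insertions and 0.344% to 0.523% of WT insertions. With the bait alignment carried across the substituted base, the insertion share was 19.3% against 26.7%, a difference of -7.42 points, and without bait ends right before that base it was -7.70. When only reads with a bait end before position 66 were kept, including those ending right at 65, the difference was -0.078 points and was not called (exact permutation p = 0.929). With junctions at the same position and strand collapsed to 1, it was -2.21 points.

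Single microhomology sequences were compared for the 5 commonest of at least 3 bases, of which 3 were called (60%), 1 higher (20%) and 2 lower (40%). As shares of microhomology joins at Sα, GCTG fell from 3.59%, 5.12% and 3.61% in the WT libraries to 1.41% to 1.79% in the double mutant (difference -2.56 points, exact permutation p = 0.0119, adjusted p = 0.0298). GCT was 2.71% against 3.43%, with overlapping libraries (exact permutation p = 0.0238, adjusted p = 0.0397). Both of these sequences have a bait copy across the substituted base, which reads with the substitution lack. Each also has a copy ending between bait positions 75 and 84, where double-mutant bait ends were rarer, as described below. The part of either in these falls was not tested. CAG rose from 0.629%, 0.664% and 1.44% to 2.27% to 2.64% (difference 1.53 points, exact permutation p = 0.0119, adjusted p = 0.0298). CAG is the germline sequence that ends at bait position 65, right before the substituted base, and the part of the substitution in this rise was not tested. CTG (2.68% against 2.31%) and AGC (2.20% against 2.44%) were not called (exact permutation p and adjusted p = 0.179 for both).

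Direct joins fell in both orientations and both inside and outside the densest part of Sα. The core, the 6161 bp interval from 114496668 to 114502828, was the shortest stretch with 90% of Sα junctions. It was set over all 9 clones of the series, each counted the same. The direct share was 5.88% against 18.5% at deletional and 5.68% against 15.7% at inversional Sα junctions. It was 5.89% against 18.3% inside the core and 5.58% against 20.2% outside it. Microhomology length was 3.05 against 2.59 bases at inversional junctions and 3.01 against 2.45 outside the core. The insertion share was not called at inversional junctions (18.7% against 21.96%, exact permutation p = 0.274, adjusted p = 0.306) or outside the core (20.9% against 21.6%, exact permutation p = 0.786, adjusted p = 0.792). These double-mutant shares count the substituted bait base as an insertion in part of the reads. With the bait carried across substituted bases they were 16.7% and 16.9%, and the comparison with WT in that reading is not given here.

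Double-mutant junctions were spread more widely over Sα and lay farther from the bait. The share outside the core was 3.24%, 3.10% and 3.78% in WT and 11.8% to 15.1% in the double mutant (median 14.5%), a difference of 10.8 points (8.91 to 12.4). In a 10 kb Sα window, which cuts off the outer junctions, it was 6.76 points. Both flanks took part. Beyond the distal edge, away from the bait, lay 9.30% against 2.76% of Sα junctions, and beyond the proximal edge 4.89% against 0.615%. The median distance of deletional junctions from the bait was 164.68 to 164.69 kb in the WT libraries and 165.49 to 165.64 kb in the double mutant. The interquartile range of their positions was 1985 bases against 1555 (difference 429, 268 to 591).

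Inversional junctions were a larger part of Sα. The deletional share was 95.9%, 94.8% and 95.3% in WT, 82.6% to 83.1% in clone 1 and 84.1% to 84.7% in clone 2, a difference of -11.7 points (-13.2 to -10.3). Among inversional junctions, those beyond the proximal edge of the core, between Sα and the bait, were 1 of 85, 0 of 99 and 3 of 97 in the WT libraries. The count of 0 allows a share of up to 3.03%. In the double mutant they were 18.4% to 22.5%. Pooled over libraries they were 756 of 3569 (21.2%) against 4 of 281 (1.42%, exact Clopper-Pearson 95% interval 0.389% to 3.60%, counting error only). The difference of library means was 19.9 points (17.6 to 22.2).

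The position change was resolved in bins of 500 bases, each orientation apart. Of 57 bins with at least 20 junctions, 49 were called (86%), 42 of them higher (73.7%) and 7 lower (12.3%) in the double mutant, and 51 at an unadjusted p under 0.05 (89.5%). The minimum was summed over the 9 libraries, so a bin could pass through the double mutant alone, and 17 of the 42 higher bins held at most 1 WT junction. The balance of higher and lower bins is therefore no result. Of the 20 bins with at least 20 junctions in WT alone, a choice that favours lower bins, 10 were called higher and 7 lower. Without WT library 1 no bin passed adjustment (39 at an unadjusted p under 0.05), and likewise without WT library 2 (38). With 6 against 2 libraries no p can be under 0.0357, whatever the size of a change, and all 49 bins kept their direction without either library. The lower bins were 7 neighbouring deletional bins from 114499501 to 114503000, on the side of the core nearer the bait. The largest fall was at 114500001 to 114500500, which took 25.6%, 24.3% and 24.1% of WT Sα junctions, 7.51% to 8.32% in clone 1 and 10.1% to 12.1% in clone 2. The difference was -15.4 points (95% interval -18.1 to -12.5, p = 0.0119 by exact permutation and 0.0166 after adjustment), and the clones did not overlap each other. The largest rises were in the deletional bins from 114498001 to 114499500, farther from the bait. They took 7.39% against 3.01%, 10.3% against 5.92% and 11.4% against 6.98% of Sα junctions, in order of position. The largest inversional rise was at 114499501 to 114500000, from 0.483%, 0.788% and 0.533% in WT to 1.73% to 2.38%. From 114503501 to 114505500, beyond the proximal edge, the double mutant had 343 inversional junctions of 21751 and WT had 0 of 6037, which allows a share of up to 0.0497%. Each of the 4 bins of this stretch was without a WT junction and the stretch was named with these data known. Its 0 is therefore no separate support. The next bin towards the core, 114503001 to 114503500, had 0%, 0% and 0.0484% in WT and 0.407% to 0.804% in the double mutant.

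**Figure D2:**
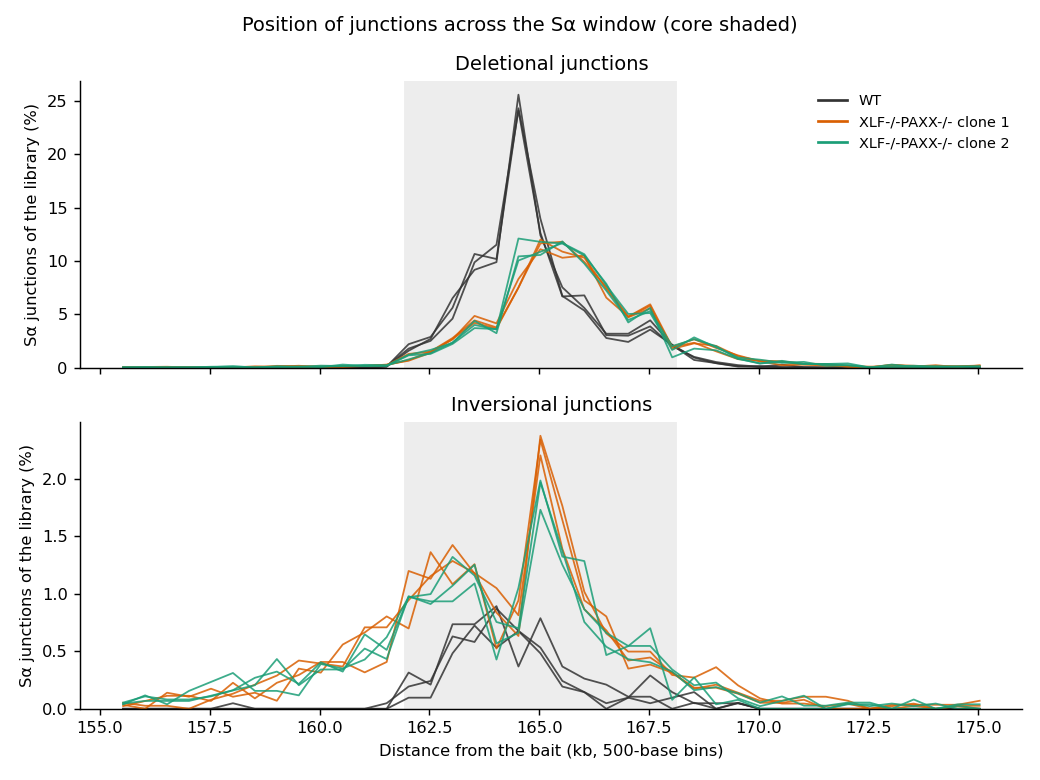
Share of each library's Sα junctions (y axes, percent) by distance from the bait (x axis, kb, in 500-base bins), deletional above and inversional below, 1 line per library, with the core shaded. The deletional WT peak of 24.1% to 25.6% is replaced by a broad double-mutant rise farther from the bait, and inversional double-mutant junctions extend to the bait-proximal side of the core.

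Around the bait itself, in the window reaching 10 kb to each side (114654780 to 114674913), junctions join the bait to other breaks in or near Sμ. They were 26.4%, 25.5% and 26.1% of all junctions in WT and 29.8% to 34.0% in the double mutant, a difference of 5.89 points (3.67 to 8.12). Deletional junctions over 3 kb below the bait were almost lacking in WT, at 5 of 848, 4 of 777 and 6 of 873. They were 21.7% to 23.6% of deletional bait-window junctions in the double mutant. Pooled, they were 2335 of 10328 against 15 of 2498, and the difference of library means was 21.96 points (21.05 to 23.1). With only 5 kb to each side counted, it was 13.9 points. Fewer double-mutant junctions lay within 500 bases of the bait, 17.5% ± 2.32 (SD, n = 6) against 32.8% ± 1.39 (n = 3), and fewer from 1 to 3 kb, 33.2% ± 3.39 against 43.7% ± 2.27. The stretch between 500 bases and 1 kb held more, 26.7% ± 1.77 against 22.9% ± 1.07.

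**Figure D3:**
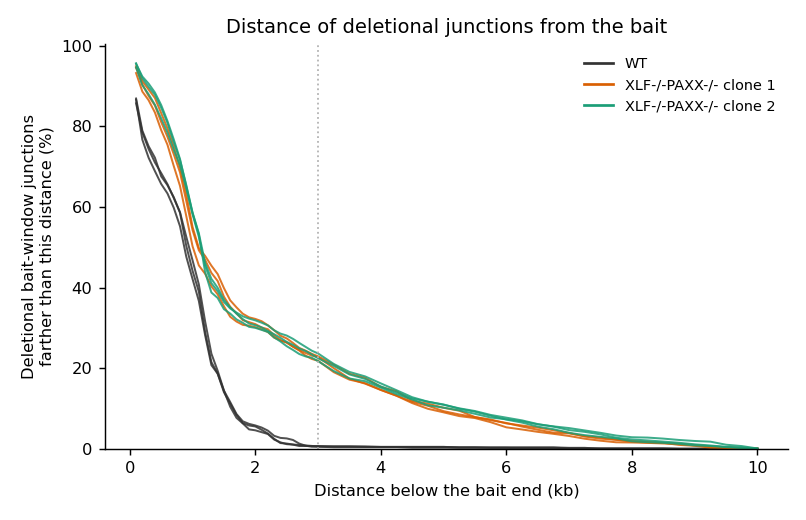
Deletional bait-window junctions farther from the bait than a given distance (y axis, percent; x axis, kb), 1 line per library, with 3 kb dotted. The WT lines reach 0.515% to 0.687% at 3 kb, where the double-mutant lines stand at 21.7% to 23.6%.

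Orientation and structure shifted in the bait window too. The deletional share was 83.6% ± 0.885 (SD, n = 3) in WT and 66.1% ± 2.27 (n = 6) in the double mutant. Junctions on the other side of the bait were 13.0% against 5.01% of bait-window junctions, and inversional ones below the bait 21.0% against 11.4%. The direct share was 19.7%, 21.3% and 19.2% in WT and 6.34% to 8.19% in the double mutant, a difference of -13.1 points (-14.6 to -11.7). The microhomology share was 67.0% against 53.4% and mean microhomology length 2.89 against 2.36 bases. The insertion share was not called (26.0% against 26.5%, exact permutation p = 0.655, adjusted p = 0.677). With the bait carried across substituted bases the double-mutant share was 23.3%, and the comparison with WT in that reading is not given here. Direct joins were 5.78% of the 2335 double-mutant junctions over 3 kb away. None of the 15 WT ones was direct, and a count of 0 in 15 allows a share of up to 20%.

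AGCT lay less often at the broken prey end in the double mutant. The genome sequence of 10 bases on each side of the prey break was searched for AGCT, which reads the same on both strands. At Sα it held the motif in 48.6%, 50.3% and 51.1% of WT junctions and in 27.1% to 29.3% of double-mutant ones, a difference of -22.2 points (-23.5 to -20.9). The groups did not overlap at direct joins (25.5% against 46.9%), microhomology joins (27.7% against 48.5%) or insertions (28.9% against 54.9%), nor in either orientation. Breaks inside the motif or at its edge were 11.7% ± 0.747 (SD, n = 6) against 24.98% ± 0.404 (n = 3). In WT the breaks had a sharp maximum 1 base past the centre of the motif, at 9.31% of Sα junctions, where the double mutant had 1.96%. Much of the difference moved with position, and the values above are not standardised for it. Among deletional junctions standardised to the same distribution over 15 bins of 500 bases, the share was 33.7% against 41.0%, a difference of -7.34 points (-9.93 to -5.02).

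The same 20 bases held AGCT in 33.9% of double-mutant and 50.4% of WT junctions in the bait window. Outside the core of Sα the shares were 8.42% and 9.09% (exact permutation p = 0.607, adjusted p = 0.633) and on other chromosomes 9.41% and 9.60% (exact permutation p = 0.786, adjusted p = 0.792), and neither was called. The 95% intervals of these differences were -3.46 to 2.42 and -1.73 to 1.17 points.

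**Figure D4:**
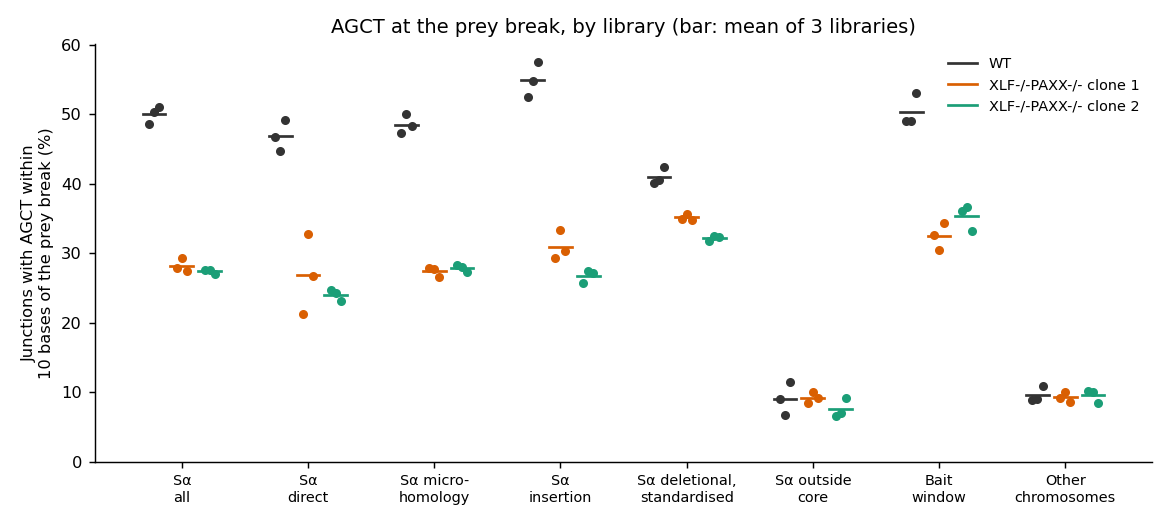
Share of junctions with AGCT within 10 bases of the prey break (y axis, percent) by region and joint type (x axis); each point is a library and each bar the mean of the 3 libraries of WT or of a double-mutant clone. WT points lie above all double-mutant points at Sα and in the bait window, and the groups overlap outside the Sα core and on other chromosomes.

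The bait ends changed as well. Bait ends at positions 75 to 84, between the AGCT motifs, were 315 of 2070, 309 of 1903 and 336 of 2064 Sα junctions in the WT libraries (15.2% to 16.3%). In the double mutant they were 1.02% to 1.61%, a difference of -14.7 points (-15.1 to -14.0). Each of the 10 positions was lower in the double mutant. The range was chosen after seeing these data, so its test and this count are no independent support for the difference. In the bait window the same ends were 1.02% against 14.1%, and on other chromosomes 4.53% against 5.59%, which was not called (exact permutation p = 0.298, adjusted p = 0.330). Bait alignments that ran past these positions had no net gap in 97.9% to 98.8% of double-mutant and 98.7% to 99.4% of WT reads. The ends were also low in the XLF-/- clones, at 1.45% and 1.55%, and not in the PAXX-/- clones, at 14.9% and 17.9%. XLF-/- clone 1 carried the substitution G77A, which lies in this range, and its part in these ends was not tested.

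Over single positions, 53 of the 95 tested were called (55.8%), 33 higher (34.7%) and 20 lower (21.1%) in the double mutant, and 59 at an unadjusted p under 0.05 (62.1%). The minimum of 20 junctions was again summed over the 9 libraries, and 6 of the 33 higher positions held at most 1 WT junction. Of the 67 positions with at least 20 junctions in WT alone, 19 were called higher and 20 lower. The positions named here had an exact permutation p of 0.0119 and an adjusted p of 0.0236. Position 64, the first base of the first AGCT, was the end of 1.298% of double-mutant and 6.14% of WT Sα junctions. Position 65, right before the substituted base, was the end of 8.64% to 10.4% against 3.67%, 3.99% and 4.07%. With the bait carried across the substituted base, position 65 was 1.84% against 2.62%, and the direction of its difference was reversed. Ends at positions 31 to 37 were each more frequent in the double mutant, for example 2.47% against 0.905% at position 32. The mean aligned bait length differed by -1.06 bases (95% interval -2.72 to 0.60, p = 0.190 by exact permutation and 0.219 after adjustment), and among bait ends before the substituted base by -2.40.

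**Figure D5:**
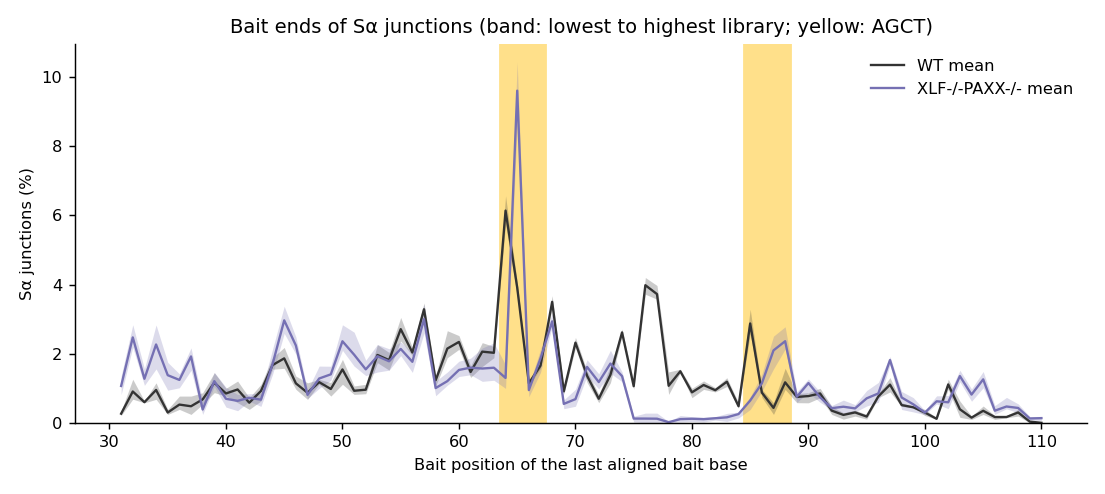
Share of Sα junctions (y axis, percent) by the last aligned bait position (x axis), as group means with a band from the lowest to the highest library and the AGCT motifs in yellow. The WT line runs well above the double-mutant line from 75 to 84, and the double mutant has its peak of 9.61% at position 65.

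Between the bait and Sα and in the 100 kb beyond Sα the double mutant had more junctions. These shares, and those of the windows, are of junctions outside the bait window. Between the bait and Sα windows lay 1.36%, 1.34% and 1.52% of WT junctions and 2.05% to 3.59% of double-mutant ones, a difference of 1.34 points (95% interval 0.576 to 2.14, p = 0.0238 by exact permutation and 0.0333 after adjustment). The clones did not overlap each other (2.22% and 3.28% on average), and the unadjusted p was 0.0536 without library 1 or library 3 of clone 2. With the smaller windows, which widen the space between, it was 5.77 points, and without clone 2 it was 0.817 points. Of the junctions there, 5.23% against 22.7% were direct, and 19.6% against 51.6% had AGCT at the prey break. In the 100 kb beyond Sα lay 2.56% against 0.620%, a difference of 1.94 points (1.65 to 2.23), and on the rest of chromosome 12 4.41% against 2.39%. In windows of 10 kb over the locus, 7 of 17 were called (41.2%), 7 of them higher in the double mutant, and 11 had an unadjusted p under 0.05 (64.7%). Of the 11, 1 was lower: 114599501 to 114609500, the densest of these windows in WT, had 0.629%, 0.669% and 0.877% in WT and 0.229% to 0.644% in the double mutant, with overlapping libraries (p = 0.0476 by exact permutation, 0.0736 after adjustment). Of the 7 higher windows, 1 held no WT junction. The window just beyond Sα, 114479501 to 114489500, had 0.280%, 0.186% and 0.236% in WT and 1.19% to 1.47% in the double mutant (exact permutation p = 0.0119, adjusted p = 0.0289). From 114649501 to the edge of the bait window lay 191 of 33508 double-mutant junctions and 0 of 8514 in WT, which allows up to 0.0352%. This was the called window without a WT junction, so its 0 is no separate support. On the far side of the bait, 114719501 to 114729500 had 0.694% against 0.179% (exact permutation p = 0.0119, adjusted p = 0.0289). Gene names are not given for these windows because no mm9 annotation was used here.

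Other chromosomes took 22.9%, 25.1% and 26.0% of WT junctions outside the bait window and 18.9% to 31.6% of double-mutant ones, and the groups overlapped (difference 0.406 points, 95% interval -6.23 to 7.05, p = 0.929 by exact permutation and 0.929 after adjustment). The Sα share was 65.2% against 70.9% and was not called (-5.71 points, 95% interval -11.9 to 0.529, p = 0.0833 by exact permutation and 0.103 after adjustment). It reached an unadjusted p of 0.0119 without gaps over 20 bases (-7.82 points) and with the smaller windows (-10.4). The clone means were 62.4% in clone 1 and 68.04% in clone 2, with overlapping libraries. Of junctions on other chromosomes, the direct share was 14.7% ± 1.497 (SD, n = 6) against 16.8% ± 1.24 (n = 3) and was not called (exact permutation p = 0.0833, adjusted p = 0.103). The difference between the groups in the direct share at Sα minus that on other chromosomes was -10.4 points (-12.8 to -8.07), which was called. Microhomologies were shorter on other chromosomes in the double mutant, 3.92 against 4.44 bases (difference -0.52, -0.90 to -0.14, exact permutation p = 0.0238, adjusted p = 0.0333), the opposite direction to Sα. Joins with 3 shared bases (11.5% against 8.22%), 1-base insertions (2.05% against 1.17%) and insertions of 2 to 5 bases (4.33% against 1.60%) were more frequent, all as shares of junctions on other chromosomes. The substituted bait base can add short insertions to the double-mutant shares, and its part here was not tested. With the bait carried across substituted bases, all insertions on other chromosomes were 24.3% rather than 25.2% in the double mutant. Gaps over 20 bases varied widely between double-mutant libraries there, from 4.99% to 23.1%, against 21.0% to 27.9% in WT. Without them the direct share differed by -4.995 points with an exact permutation p of 0.0119.

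Of the 5 densest 10 kb windows on other chromosomes, 2 were called (40%), both higher in the double mutant, and 3 had an unadjusted p under 0.05 (60%). The window at chromosome 14, 32420001 to 32430000, had 0.420%, 0.334% and 0.405% of WT junctions outside the bait window and 0.998% to 1.43% of double-mutant ones (exact permutation p = 0.0119, adjusted p = 0.0298). The window at chromosome 8, 129110001 to 129120000, had 0.118% against 0.0236% (exact permutation p = 0.0119, adjusted p = 0.0298). Windows had to be held by at least 5 of the 9 libraries, of which 6 were double-mutant. This favours windows that are high in the double mutant, and the chromosome 8 window was at 0, 0.0372% and 0.0337% in the WT libraries. None of 20 chromosomes was called by the exact permutation test on its share of these junctions, with 4 at an unadjusted p under 0.05 (20%).

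Within the double mutant, joint structure also varied between regions of a library. A sign-flip test over its 6 libraries called 13 of 19 pairs of measures. Each of these had the same sign in all 6 libraries, an exact p of 0.0312, the smallest that 64 sign flips can give, and an adjusted p of 0.0457. Inversional Sα junctions had more microhomology than deletional ones (75.7% against 70.1%) and fewer insertions (18.7% against 24.0%). Junctions outside the core had more microhomology than those inside (73.5% against 70.6%). WT means, not tested in this way, had the same directions: 62.3% against 53.9%, 21.96% against 27.6%, and 58.3% against 54.1%. The direct share was higher on other chromosomes (14.7%) and in the bait window (7.002%) than at Sα (5.84%). In WT these means were 16.8%, 20.1% and 18.4%. AGCT was at more prey breaks in the bait window than at Sα (33.9% against 27.8%), where WT had 50.4% and 50.0%. Insertion shares here were read without carrying the bait across the substituted base.

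The same measures were set against the 6 XLF-/- libraries (2 clones, other sequencing runs). Of 123 measures 26 were called (21.1%), 17 higher (13.8%) and 9 lower (7.32%) in the double mutant, and 40 had an unadjusted p under 0.05 (32.5%). At Sα the insertion share was 23.1% against 17.2% in XLF-/-, and the microhomology share 71.0% against 76.5%. Neither overlapped (exact permutation p = 0.00216, adjusted p = 0.0166 for both). Carrying the bait across substituted bases in both genotypes gave 19.3% against 17.05% for insertions and 74.9% against 76.7% for microhomology. Libraries then overlapped for both shares, and neither passed adjustment (exact permutation p = 0.00866 and 0.0173, adjusted p = 0.118 and 0.164). The share of bait ends at AGCT at Sα was 21.8% against 16.02% in XLF-/- (exact permutation p = 0.00216, adjusted p = 0.0166). With the bait carried across substituted bases in both genotypes it was 16.5% against 15.9% (exact permutation p = 0.305). In that reading none of the 123 measures passed the exact permutation test after adjustment, 24 had an unadjusted p under 0.05, and the smallest adjusted p was 0.0887. Deletional bait-window junctions over 3 kb away were 22.6% against 19.3% (difference 3.21 points, 95% interval 1.67 to 4.57, p = 0.00649 by exact permutation and 0.0333 after adjustment), with overlapping libraries. Carrying the bait left these shares, the interval and the unadjusted p unchanged. The adjusted exact permutation p was 0.114 in that reading because p-values of other measures in the adjustment changed. For the share outside the Sα core the interval of the difference from XLF-/- was -0.294 to 2.75 points, and for AGCT at the prey break it was -1.92 to -0.189 points, which did not pass adjustment (adjusted exact permutation p = 0.116).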

How the data were processed

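LAM-HTGTS junction tables of the XLF-/-PAXX-/- and WT groups were analysed, with XLF-/- and PAXX-/- for comparison. Bowtie2 and mm9 are named in the submitters' processing notes, and no version or further step is stated in the sources used here. In the deposited tables each line is 1 junction, with genome and read positions of the bait and prey alignments, and 1 table holds the 3 libraries of a clone, told apart by a library code that could be matched to the clone but not to a single sample. The overlap counted the bases of a read that both alignments cover. The bait window added 10 kb on both sides to the span of bait alignments, the Sα window was 20 kb around the densest 1 kb bin at least 50 kb away, and the core was the shortest interval with 90% of its junctions.

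Each library gave 1 value per measure. Groups were compared by exact two-sided permutation of library means with 95% intervals from inverting the test, and pairs within libraries by sign flips. Regions and sequences named were the windows, the bins and bait positions with the largest changes, the 5 commonest microhomologies of at least 3 bases, and the 5 densest 10 kb windows on other chromosomes held by at least 5 of the 9 libraries. Members, measures and lists were chosen with earlier results of these data known. The AGCT, bait-position, heavy chain window, bin-standardised and within-library measures and the handling of the substituted base were added after seeing the data. Single shares have exact Clopper-Pearson intervals and counts of 0 a limit of 3 counts, which cover counting error only. Lines repeating a junction, strand and bait end were 0.524% to 1.24% of a library. Pairs of double-mutant libraries shared 9.32% to 16.2% of exact Sα junctions and pairs of WT libraries 5.95% to 6.09%, as a share of the smaller library. The tests were tried on 1000 simulated measures of independent libraries, without clone or run effects. An unadjusted p under 0.05 was reached by 100% of 10-point changes and by 7% of unchanged measures. The 95% intervals held the true difference in 93.2%. Python 3.11.15, numpy 2.4.6, pandas 2.3.3, scipy 1.17.1 and matplotlib 3.10.9 were used. Ligase4-/- libraries were not compared with any group here, but they counted in placing the Sα window and its core, which were set over all 9 clones.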

Additional observations from a re-analysis of the deposited data

Results flagged for a closer look

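In the share of Sα junctions outside the core, library 1 of XLF-/-PAXX-/- clone 2 (11.8%) lay far below the other 5 double-mutant libraries (14.3% to 15.1%), and above every WT library. In the share of prey breaks with AGCT at Sα, library 2 of clone 1 (29.3%) lay above the other 5 (27.1% to 27.9%) and below every WT library. Both stood apart by Dixon's criterion for 6 samples, which chance meets in about 1 of 20 groups, and 17 measures were examined.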

How the results depend on the processing

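The differences from WT in the direct, microhomology and deletional shares at Sα, the share outside the core, microhomology length, the direct share and distance over 3 kb in the bait window, AGCT at the prey break and bait ends at 75 to 84 kept their direction under every alternative run for them, and an unadjusted exact p under 0.05 in each tested with at least 5 double-mutant libraries. Without 1 clone, 20 splits allow no p under 0.1. The other-chromosome share, not called, changed sign with junctions collapsed by position and strand (-0.725 points), with bait ends before the substituted base (-2.56, or -1.86 without those right before it), with smaller windows (-0.363) and without clone 1 (-2.88), and ranged from -0.896 to 1.64 without single libraries. The insertion difference at Sα was -0.078 among bait ends before the substituted base. Calls were gained without gaps over 20 bases for the Sα share (-7.82) and the other-chromosome direct share (-4.995), with smaller windows for the Sα share (-10.4), with bait ends before the substituted base for the direct share on other chromosomes (-3.45, or -3.22) and bait length (-2.40, or -4.09), and without clone 2 library 1 for the Sα share (range -6.92 to -4.53). Position bins called were 26 with deletional junctions only, 32 with bait ends before but not right before the substituted base, 30 with 1 kb bins, and 0 to 51 without single libraries, where 0 reflects the smallest p of 0.0357 that 6 against 2 libraries allow. The share between the windows ranged from 1.18 to 1.48 without single libraries. Causes were not tested. No paired analysis was possible because the library column does not carry the replicate numbers of the labels. Depth limits WT most: it had 281 inversional Sα junctions.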
